A study of Rattus norvegicus with 42 samples.

Results

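Interferon-induced genes are the genes that a cell switches on when interferon binds its receptors, and 39 of them, chosen by name, were looked for on whole blood arrays of rats. Members were found through the gene symbol in the probe annotation of the array. Probe sets were present for 36 of the 39 genes (47 of 31042 probe sets tested, and 36 of 14217 genes with 1 symbol). *Ddx58*, *Ifi47* and *Xaf1* had no probe set under those symbols and were dropped. Each gene is given by its probe set with the highest mean over all arrays, and other probe sets are given for some genes. Expression was measured in 42 male Sprague-Dawley rats of 280 to 350 g, 6 in each of 7 groups, on Affymetrix rat expression arrays, and all blood was drawn at 24 hours. The groups were reperfused-MCAO + tPA, reperfused-MCAO, permanent-MCAO + tPA, permanent-MCAO, tPA without MCAO, anesthesia and naive. MCAO is occlusion of the middle cerebral artery, a model of ischemic stroke, here made with a suture that was withdrawn after 2 hours in the reperfused groups and left in place in the permanent groups. tPA is the clot-dissolving protease tissue plasminogen activator, given as recombinant human protein at 3.3 mg/kg at 3 hours. All rats were under isoflurane when blood was drawn, and whether the rats given tPA without MCAO had been anesthetized before that is not stated in the sources used.

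Type I interferons bind a receptor made of Ifnar1 and Ifnar2, and the kinases Jak1 and Tyk2 on it then start a signal that runs through Stat2 and Irf9. Both belong to a complex that enters the nucleus and binds the interferon-stimulated response element in the promoters of its targets. Interferon gamma acts through Ifngr1 and Ifngr2 and, in the nucleus, on the gamma-activated site. The products sense viral RNA or DNA, degrade or edit it, block translation, tag proteins with Isg15 or ADP-ribose, and load peptides for presentation to T cells, and in blood they are made by most kinds of leukocyte.

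The promoters of the members show how far they share that element. RefSeq promoters of 300 bases on the rat assembly GRCr8, 250 bases before and 50 after the start of the gene, were at hand for 29 of the 36 members. The core of the response element was searched on both strands as GAAA, any 2 bases and GAAA again, and it stood in 18 of these 29 (62.1%), against 1312 of 33469 promoters in all (3.92%). The core of the gamma-activated site, TTCNNNGAA, also searched on both strands, stood in 6 of 29 (20.7%), against 2970 of all promoters (8.87%). The sequences below belong to members that differed between the tPA-treated rats of the reperfused and permanent groups, as described later, and they show that such members differ in whether this window holds the element. Capitals mark the match. In *Eif2ak2* (chr6:21940904-21941203, plus strand) it begins 16 bases before the start, in *Parp12* (chr4:68850492-68850791, minus strand) 18 bases before it, and in *Dtx3l* (chr11:78319975-78320274, plus strand) just after the start. The windows of *Herc6* (chr4:88896944-88897243, minus strand) and *Oasl* (chr12:47356243-47356542, minus strand) hold no match to either core.
Eif2ak2: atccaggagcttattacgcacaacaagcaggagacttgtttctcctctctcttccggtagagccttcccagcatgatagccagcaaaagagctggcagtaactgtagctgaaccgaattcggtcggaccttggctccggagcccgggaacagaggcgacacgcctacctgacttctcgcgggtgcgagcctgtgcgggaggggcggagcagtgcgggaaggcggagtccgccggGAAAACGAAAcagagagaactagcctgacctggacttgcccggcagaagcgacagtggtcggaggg
Parp12: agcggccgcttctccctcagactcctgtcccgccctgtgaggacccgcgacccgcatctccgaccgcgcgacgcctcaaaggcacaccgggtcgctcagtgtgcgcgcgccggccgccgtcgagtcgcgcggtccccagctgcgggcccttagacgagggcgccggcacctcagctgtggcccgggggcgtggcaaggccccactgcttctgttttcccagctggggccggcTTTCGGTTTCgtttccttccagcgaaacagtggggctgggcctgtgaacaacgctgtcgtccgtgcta
Dtx3l: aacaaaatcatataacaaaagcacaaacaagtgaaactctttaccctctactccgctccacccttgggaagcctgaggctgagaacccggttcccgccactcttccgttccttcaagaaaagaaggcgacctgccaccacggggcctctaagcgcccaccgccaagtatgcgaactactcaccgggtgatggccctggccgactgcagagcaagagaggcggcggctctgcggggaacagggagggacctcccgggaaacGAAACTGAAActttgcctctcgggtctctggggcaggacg
Herc6: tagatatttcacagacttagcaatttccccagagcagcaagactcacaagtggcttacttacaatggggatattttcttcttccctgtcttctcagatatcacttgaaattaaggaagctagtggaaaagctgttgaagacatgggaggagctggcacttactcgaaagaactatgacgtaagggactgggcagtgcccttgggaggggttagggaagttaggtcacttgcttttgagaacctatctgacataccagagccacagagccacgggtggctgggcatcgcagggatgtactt
Oasl: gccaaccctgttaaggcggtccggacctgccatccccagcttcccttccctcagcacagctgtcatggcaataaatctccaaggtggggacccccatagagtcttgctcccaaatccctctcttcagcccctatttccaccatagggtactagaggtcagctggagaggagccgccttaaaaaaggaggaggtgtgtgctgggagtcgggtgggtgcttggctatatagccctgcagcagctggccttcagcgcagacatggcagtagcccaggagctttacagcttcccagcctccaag
A match is a description of these letters and says nothing on binding in blood cells.

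Values are log2 expression as made by the authors with GC-RMA. A probe set is said to differ at p of at most 0.01 and a fold of at least 1.2. The study set these thresholds for tPA within each kind of MCAO, and they are used here for all comparisons. Percentages of all probe sets that pass are given as background. Of the 36 members 34 had a mean of at least log2 4, and *Oas1b* and *Ifih1* lay below that level, where values are near background. The arrays were alike in their medians (3.05 to 3.26), and of the lists of blood cell markers only that of dendritic and plasmacytoid cells lay near background, at a mean of 3.86 ± 0.0858 in anesthesia rats (SD, n = 6). The arrays of tPA without MCAO stood apart in the hybridization controls, RNAs added to every sample, with a mean of 11.2 ± 0.747 against 12.2 ± 0.221 in anesthesia rats, and replicate 2 of that group was lowest at 9.72. In whole blood, fewer cells of a type and less RNA per cell cannot be told apart. Each sample is a rat of its own.

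The main question was whether tPA changed these genes differently in reperfused and permanent MCAO. In reperfused-MCAO rats 28 of the 36 members were higher with tPA than without, with a median difference of 0.14 on the log2 scale. In permanent-MCAO rats 24 of the 36 were lower with tPA, with a median of -0.23. Over all probe sets the medians were 0.02 in reperfused-MCAO rats and 0.00 in permanent-MCAO rats. With tPA 43.3% of the probe sets at or above log2 4 were higher in reperfused-MCAO rats and 48.4% in permanent-MCAO rats. Of all probe sets 62.55% were higher in reperfused-MCAO rats and 51.21% in permanent-MCAO rats. In the difference between both effects, reperfused minus permanent, 30 of the 36 were positive, with a median of 0.43, against 0.01 over all probe sets. Of all probe sets 58.37% were positive in this difference, and of those at or above log2 4 45.69%. Few single genes passed the thresholds, namely 1 in reperfused-MCAO rats (*Herc6*, higher), none in permanent-MCAO rats, and 2 in the difference between both effects (*Herc6* and *Mx2*).

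**Figure D1:**
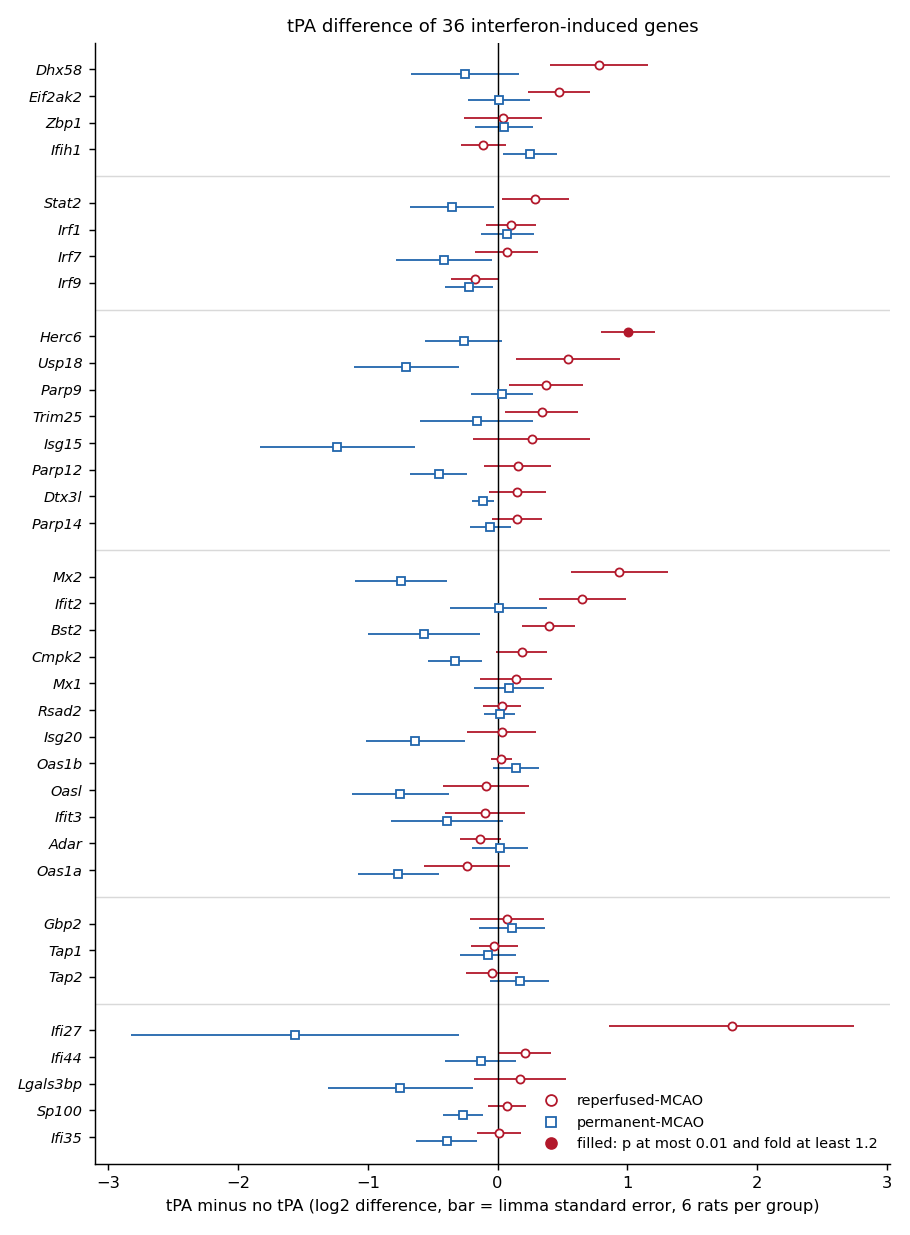
tPA minus no tPA on the log2 scale for 36 interferon-induced genes in reperfused-MCAO (red circles) and permanent-MCAO rats (blue squares), with limma standard errors, 6 rats per group. Blocks run downward as nucleic acid sensors, transcription factors, ubiquitin-like and ADP-ribose modifiers, antiviral effectors, GTPases with antigen transport, and other genes. Only the point of *Herc6* in reperfused-MCAO rats is filled, and 28 circles but 12 squares lie right of 0.

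The counts of single genes were small. Their share lay above that of all probe sets in reperfused-MCAO rats and in the difference, but it rests on 1 and 2 genes. In reperfused-MCAO rats 1 of 36 members (2.78%) passed, against 0.722% of all probe sets. In permanent-MCAO rats it was 0 of 36, against 0.322%, and in the difference 2 of 36 (5.56%), against 0.296%. After Benjamini-Hochberg adjustment over all probe sets no member passed in these 3 comparisons with limma, where 2, 1 and 4 members lay under an unadjusted p of 0.05, and no other probe set passed either. By signs, 19 members were positive in reperfused-MCAO and negative in permanent-MCAO rats, 9 were positive in both, 5 were negative in both and 3 were negative in reperfused-MCAO and positive in permanent-MCAO rats. Other probe sets of *Mx2*, *Adar*, *Ifit2*, *Irf9* and *Tap1* had the opposite sign to the one used in at least 1 of these pairs.

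*Herc6* encodes a ligase that in mice attaches Isg15 to proteins. It measured 6.81, 7.11 and 7.70 (lowest, median and highest) in reperfused-MCAO + tPA rats, against 5.75, 6.08 and 6.69 in reperfused-MCAO rats. The groups did not overlap, and no other member was free of overlap in this comparison. Overlap was looked at in members only, so counts of members without overlap have no background over all probe sets. The difference was 1.00 on the log2 scale (SE 0.208), a fold of 2.00, with an exact two-sided permutation p of 0.00216 over 924 divisions of the 12 rats, the smallest they can give, and a limma adjusted p of 0.542. In permanent-MCAO + tPA rats it measured 5.41, 6.25 and 6.61, against 5.74, 6.49 and 7.36 in permanent-MCAO rats, and these ranges overlapped. The difference there, -0.26 (SE 0.294), did not pass. Between both kinds of MCAO the tPA effects on *Herc6* differed by 1.26 (SE 0.367, limma adjusted p = 0.978). With same-numbered rats as blocks in the fit, *Herc6* did not pass for tPA in reperfused-MCAO rats but still passed in this difference. The level with tPA in reperfused-MCAO rats (7.15 ± 0.347, SD, n = 6) was the highest of the 7 groups, next to anesthesia (6.97 ± 0.916) and naive rats (6.82 ± 0.575). Reperfused-MCAO rats without tPA (6.15 ± 0.402) were the lowest, close to permanent-MCAO + tPA rats (6.18 ± 0.438), rats with tPA without MCAO (6.28 ± 0.727) and permanent-MCAO rats (6.44 ± 0.611).

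*Mx2* is a dynamin-like GTPase, which in rats acts against viruses that replicate in the cytoplasm. It measured 4.54, 5.23 and 5.34 in reperfused-MCAO + tPA rats, against 2.78, 4.20 and 5.16 in reperfused-MCAO rats. In permanent-MCAO + tPA rats the values were 3.05, 4.14 and 4.34, against 3.99, 4.40 and 6.05 in permanent-MCAO rats. In both pairs the ranges overlapped, in the reperfused pair because 2 of the untreated rats lay within the range of the treated rats. The tPA differences were 0.94 (SE 0.373) in reperfused-MCAO rats and -0.74 (SE 0.357) in permanent-MCAO rats, and they differed by 1.68 (SE 0.527, limma adjusted p = 0.978). Some of these levels are close to background, and the other probe set of *Mx2* lay near background at 2.72 ± 0.0319 in reperfused-MCAO + tPA rats, with a few rats above, and a tPA difference there of -0.86. The direction for *Mx2* rests on the brighter probe set. With same-numbered rats as blocks in the fit, the difference of tPA effects on *Mx2* did not pass.

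Among the ubiquitin-like and ADP-ribose modifiers, *Isg15* itself, the ubiquitin-like tag, differed by 0.26 with tPA in reperfused-MCAO rats and by -1.23 in permanent-MCAO rats (SE 0.597). *Usp18*, the protease that takes Isg15 off proteins and dampens receptor signaling, differed by 0.54 in reperfused-MCAO rats and by -0.70 in permanent-MCAO rats. Neither passed in either kind of MCAO. *Ifi27*, a mitochondrial protein strongly induced by interferon, spread widely. It measured 8.01, 10.81 and 11.38 in reperfused-MCAO + tPA rats, against 5.98, 9.17 and 10.53 in reperfused-MCAO rats. It measured 3.91, 9.50 and 10.95 in permanent-MCAO + tPA rats, against 7.61, 9.84 and 11.81 in permanent-MCAO rats. The ranges overlapped in both kinds of MCAO, and its difference of tPA effects, 3.36, came with a SE of 1.61 and did not pass. *Oas1a*, an oligoadenylate synthetase that activates an RNA-degrading enzyme, was the member with the smallest p in permanent-MCAO rats, at -0.76 (SE 0.314, limma adjusted p = 1.00). Its values were 7.84, 8.81 and 9.38 in permanent-MCAO + tPA rats, against 8.88, 9.36 and 10.23 in permanent-MCAO rats, and the ranges overlapped.

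The sign counts leaned on few rats. Averaged over the 36 members, as deviations from the mean of each gene, reperfused-MCAO + tPA rats lay at 0.22 ± 0.148 (SD, n = 6) and reperfused-MCAO rats at -0.02 ± 0.392. Permanent-MCAO + tPA rats lay at -0.32 ± 0.282 and permanent-MCAO rats at -0.03 ± 0.358. The treated groups were the highest and the lowest of the 7, and the 3 groups without MCAO lay between, at 0.03 for tPA without MCAO, 0.07 for anesthesia and 0.04 for naive. Reperfused-MCAO replicate 6 was low (-0.59, with 2 of 36 genes above their own mean), and permanent-MCAO replicate 6 was high (0.59). Without reperfused-MCAO replicate 6, 20 of 36 members were higher with tPA in reperfused-MCAO rats (median 0.04). Without permanent-MCAO replicate 6, 16 of 36 were higher with tPA in permanent-MCAO rats (median -0.12). Weighting arrays by quality gave 21 of 36 and a median of 0.03 in reperfused-MCAO rats. In the difference of tPA effects this weighting gave 26 of 36 positive and a median of 0.18.

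**Figure D2:**
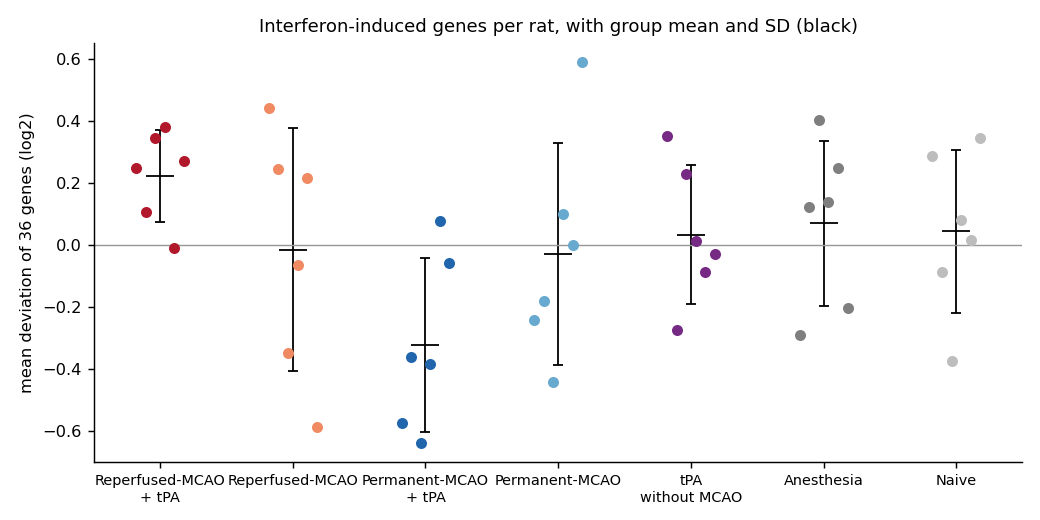
Mean deviation of the 36 interferon-induced genes from each gene's mean over 42 arrays (log2), 1 point per rat, with group mean and SD in black. The reperfused-MCAO + tPA rats lie between -0.01 and 0.38 and the permanent-MCAO + tPA rats between -0.64 and 0.08, and the untreated MCAO groups spread across both.

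Members moved together within groups, so that their counts are not independent of each other. Over 630 pairs of members the median correlation of deviations from the group means was 0.29 (42 arrays), and 141 pairs were above 0.5. The closest pairs were *Irf7* with *Lgals3bp*, *Oasl* with *Ifit3*, *Isg20* with *Cmpk2*, and *Usp18* with *Dhx58*, each above 0.8. The pairs share arrays, and no test was made.

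Set against each other directly, the tPA-treated rats of both kinds of MCAO differed in more members than the tPA comparisons did. In reperfused-MCAO + tPA rats 33 of the 36 members were higher than in permanent-MCAO + tPA rats, with a median of 0.41 on the log2 scale, against -0.01 over all probe sets. Of all probe sets 42.16% were higher, and of those at or above log2 4 53.54%. Of the 36 members 9 passed (25.0%), all higher, against 0.332% of all probe sets in either direction and 0.193% higher. They were *Isg15*, *Herc6*, *Usp18*, *Dtx3l* and *Parp12* among 8 modifiers, *Mx2*, *Ifit2* and *Oasl* among 12 antiviral effectors, and *Eif2ak2* among 4 sensors. No member passed after Benjamini-Hochberg adjustment with limma (adjusted p = 1.00 for all 36), where 13 lay under an unadjusted p of 0.05. These rats are also those of the tPA comparisons above, so the counts share samples. Without tPA, 0 of 36 members passed between reperfused-MCAO and permanent-MCAO rats, against 0.709% of all probe sets, none of them lay under an unadjusted p of 0.05, the methods' test, which shares no variance between probe sets, gave 0 as well, and the median was 0.05.

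In the treated rats the modifiers had the highest median of the role groups, 0.63, with 8 of 8 positive. *Isg15* measured 9.56, 10.42 and 11.12 in reperfused-MCAO + tPA rats, against 7.92, 9.12 and 10.11 in permanent-MCAO + tPA rats, a difference of 1.36 (SE 0.384). *Usp18* measured 8.25, 8.59 and 8.87 in reperfused-MCAO + tPA rats, against 6.54, 7.51 and 8.36 in permanent-MCAO + tPA rats, a difference of 1.14 (SE 0.261). Ranges of both genes overlapped, those of *Usp18* through 1 permanent-MCAO + tPA rat. *Herc6*, with the values above, differed by 0.97 (SE 0.219) with no overlap. *Dtx3l*, a ubiquitin ligase that works in a pair with Parp9, measured 11.10, 11.34 and 11.71 in reperfused-MCAO + tPA rats, against 10.83, 11.00 and 11.09 in permanent-MCAO + tPA rats. These did not overlap either, but only just (lowest 11.096 against highest 11.0936), and the difference was small at 0.39 (SE 0.0908). *Parp12*, an ADP-ribosyltransferase that curbs viral translation, measured 8.45, 8.9997 and 9.51 in reperfused-MCAO + tPA rats, against 8.15, 8.30 and 8.85 in permanent-MCAO + tPA rats, a difference of 0.61 (SE 0.178) with overlap.

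Of the effectors, *Mx2* differed by 1.14 (SE 0.246) with no overlap. With *Herc6* and *Dtx3l* it made up the 3 members whose treated groups did not overlap, *Dtx3l* only just. The share of all probe sets without overlap was not computed. *Ifit2*, which binds viral RNA and slows translation, measured 7.70, 8.28 and 8.50 in reperfused-MCAO + tPA rats, against 6.48, 7.25 and 7.92 in permanent-MCAO + tPA rats. The difference was 1.01 (SE 0.229), and the other probe set of *Ifit2* gave 1.24 (SE 0.196, limma adjusted p = 0.623). *Oasl*, a relative of the oligoadenylate synthetases that enhances RNA sensing in human cells, measured 8.11, 9.06 and 9.72 in reperfused-MCAO + tPA rats, against 6.84, 7.94 and 8.63 in permanent-MCAO + tPA rats, a difference of 1.14 (SE 0.339). Ranges of *Ifit2* and *Oasl* overlapped. *Eif2ak2*, the kinase that senses double-stranded RNA and stops translation, measured 6.79, 7.11 and 7.36 in reperfused-MCAO + tPA rats, against 6.19, 6.63 and 6.89 in permanent-MCAO + tPA rats, a difference of 0.52 (SE 0.151) with overlap.

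**Figure D3:**
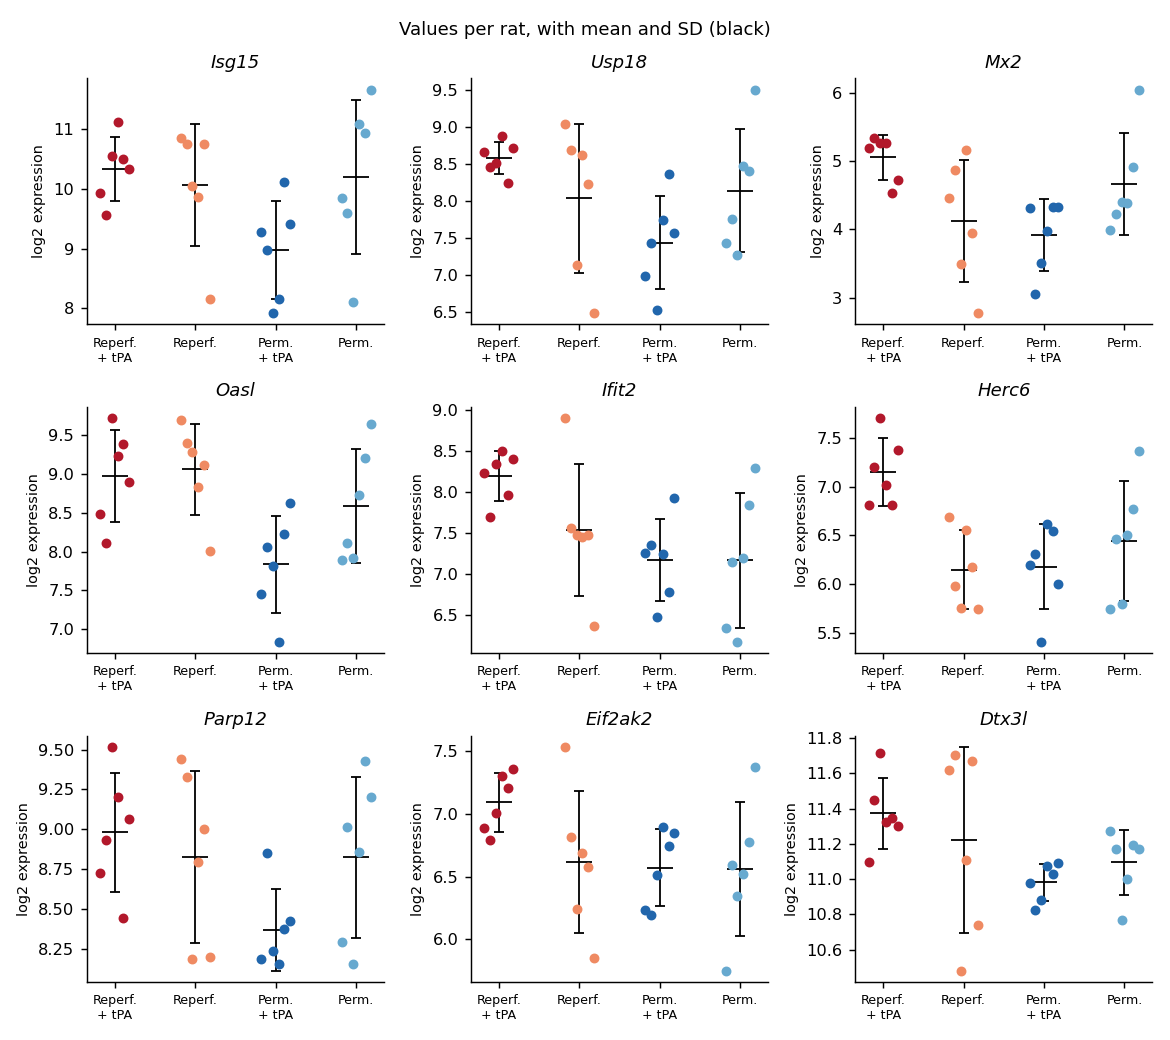
Log2 expression per rat of the 9 members that passed between the tPA-treated groups, in reperfused-MCAO + tPA, reperfused-MCAO, permanent-MCAO + tPA and permanent-MCAO rats, with mean and SD in black. In *Herc6*, *Mx2* and, only just, *Dtx3l* every reperfused-MCAO + tPA rat lies above every permanent-MCAO + tPA rat, and the untreated groups spread more widely in most panels.

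*Dhx58*, a regulator of the RNA sensors that lacks their signaling domain, and the transcription factor *Stat2* did not pass in the treated rats, at 0.92 (SE 0.331) and 0.74 (SE 0.269). The other probe set of *Stat2*, whose mean is lower, passed at 0.62 (SE 0.176). The transcription factors were all positive (4 of 4, median 0.36), as were 2 of 3 in the group of the GTPase *Gbp2* and the peptide transporters *Tap1* and *Tap2* (median 0.30) and 5 of 5 other genes (median 0.39). The other probe set of *Tap1* was at -0.03, against 0.30 in the one used. The members below 0 were *Ifih1*, an RNA sensor (-0.10), *Oas1b* (-0.18) and *Tap2* (-0.13). In leaving out each rat in turn, 5 members (without reperfused-MCAO + tPA replicate 4) to 12 members (without permanent-MCAO + tPA replicate 5) passed. Of all probe sets 0.3% and 0.557% passed in these 2 fits. *Herc6*, *Mx2*, *Usp18*, *Ifit2* and *Dtx3l* passed every time a rat was left out. *Isg15*, *Oasl*, *Parp12* and *Eif2ak2* were each lost in some of the fits that left out 1 rat, as without reperfused-MCAO + tPA replicate 4. With 1 fit of all 42 arrays *Isg15*, *Eif2ak2*, *Dtx3l* and *Parp12* did not pass. With same-numbered rats as blocks in the fit, *Isg15*, *Herc6*, *Dtx3l*, *Parp12* and *Oasl* did not pass.

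Few genes upstream of the members passed. Of 32 receptors, kinases, adaptors and regulators of the interferon pathway 26 were measured, and none passed for tPA in reperfused-MCAO rats (12 of 26 positive, median -0.01), in permanent-MCAO rats (12 of 26, median -0.01) or in the difference (15 of 26, median 0.02). *Ifnar1* differed by -0.18 with tPA in reperfused-MCAO rats (SE 0.180) and by -0.23 in permanent-MCAO rats (SE 0.202). *Ifnar2* differed by 0.07 (SE 0.167) in reperfused-MCAO rats and by -0.11 (SE 0.268) in permanent-MCAO rats. *Ifngr1* differed by -0.41 (SE 0.238) in reperfused-MCAO rats and by -0.34 (SE 0.158) in permanent-MCAO rats. Between the treated groups 1 of the 26 passed, *Irf5*, a transcription factor of the interferon response (0.46, SE 0.148), and 19 of 26 were positive with a median of 0.09.

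Of 42 further interferon-induced genes 35 were measured, and they leaned the same way with smaller medians. For tPA none passed in reperfused-MCAO rats (23 of 35 positive, median 0.05). In permanent-MCAO rats 11 of 35 were positive with a median of -0.14, and *Rtp4*, a chaperone protein strongly induced by interferon, passed at -1.08 (SE 0.339). In the difference 26 of 35 were positive (median 0.11) and none passed. Between the treated groups 30 of 35 were higher in reperfused-MCAO + tPA rats (median 0.23), and *Rtp4* (1.38, SE 0.318) and *Irgm* (0.71, SE 0.190), a GTPase that acts on vacuoles of microbes, passed.

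Markers of blood cells leaned to one side in these comparisons, without passing. In the difference of tPA effects 0 of 7 platelet markers were positive (median -0.46), 6 of 6 B cell markers were (median 0.44), 10 of 10 erythroid markers were (median 0.18) and 2 of 10 NK and cytotoxic cell markers were (median -0.34). Mean B cell marker levels were 7.63 ± 0.685 in reperfused-MCAO + tPA rats, against 7.67 ± 0.610 in reperfused-MCAO rats, and 7.30 ± 0.438 in permanent-MCAO + tPA rats, against 7.73 ± 0.515 in permanent-MCAO rats. Between the treated groups 0 of 12 T cell markers (median -0.26), 5 of 6 B cell markers (median 0.38) and 7 of 10 neutrophil markers (median 0.23) were positive, and none passed. The part of cell makeup in the differences of the interferon-induced genes was not tested.

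Without stroke, tPA was set against anesthesia. Here 4 of 36 members (11.1%) passed, against 13.7% of all probe sets, so that members passed no more often than probe sets in general. *Mx1*, the nuclear relative of Mx2 in rats, *Irf9* and *Zbp1*, a sensor of nucleic acids in the Z form, were higher, and *Isg20*, an exonuclease that degrades RNA, was lower. In all 20 of 36 members were positive, with a median of 0.07. Of the probe sets at or above log2 4, 70.85% were positive, with a median of 0.24, and of all probe sets 46.3%, with a median of -0.01. Of the members 3 passed after adjustment with limma, as did 12.5% of all probe sets. In a fit of the 13232 probe sets at or above log2 4 alone, 5 members passed (*Cmpk2* added). Of these probe sets 2328 passed as higher and 1396 as lower.

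*Mx1* measured 10.43, 10.76 and 11.24 in rats with tPA without MCAO, against 9.64, 10.02 and 10.28 in anesthesia rats. *Irf9* measured 9.53, 9.62 and 10.24 in rats with tPA without MCAO, against 8.80, 9.19 and 9.50 in anesthesia rats. Neither gene overlapped, and the differences were 0.76 (SE 0.146, limma adjusted p = 0.0133) for *Mx1* and 0.56 (SE 0.137, limma adjusted p = 0.0273) for *Irf9*, whose other probe set was also higher (0.42, SE 0.118). *Zbp1* measured 7.49, 7.82 and 8.27 in rats with tPA without MCAO, against 6.92, 7.28 and 7.69 in anesthesia rats, a difference of 0.59 (SE 0.153, limma adjusted p = 0.0331) with overlap. *Isg20* measured 6.47, 9.21 and 10.07 in rats with tPA without MCAO, against 9.33, 10.99 and 11.38 in anesthesia rats. The groups overlapped through 1 anesthesia rat and 3 rats with tPA, the difference was -1.84 (SE 0.587, limma adjusted p = 0.0635), and it no longer passed in fits without any 1 of anesthesia replicates 2 to 6 or of replicates 3, 4 and 6 of tPA without MCAO.

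**Figure D4:**
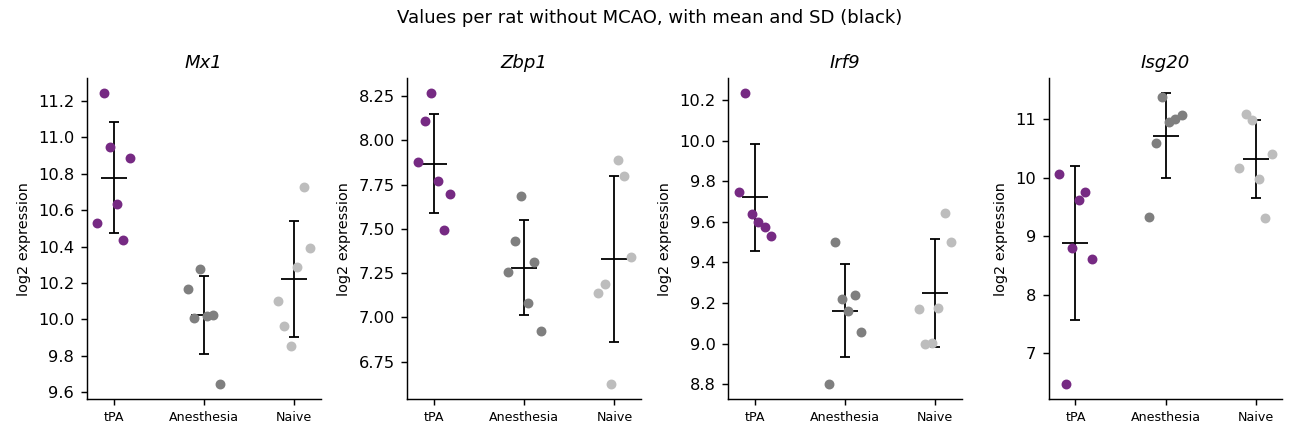
Log2 expression per rat of *Mx1*, *Zbp1*, *Irf9* and *Isg20* in rats with tPA without MCAO, anesthesia and naive rats, with mean and SD in black. *Mx1* and *Irf9* of the tPA rats lie above every anesthesia rat, and 1 tPA rat lies far below the others in *Isg20* at 6.47.

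The same arrays differed in hybridization controls and cell markers. With the hybridization control level as a covariate none of these 4 members passed, *Isg20* turned to 0.064, and *Trim25* and *Ifi27* passed. In that fit 547 of all probe sets passed as higher and 256 as lower. The control levels of both groups did not overlap (9.72 to 11.69 in rats with tPA without MCAO, 11.79 to 12.37 in anesthesia rats). The fit can therefore hardly tell a tPA difference from a difference in control level. All 12 T cell markers were higher in rats with tPA without MCAO (median 0.76), and the erythroid markers were lower in 10 of 10 (median -1.16, 5 passing). The mean erythroid level was 11.5 ± 0.651 in rats with tPA without MCAO (10.2 to 11.9), against 12.5 ± 0.243 in anesthesia rats (12.1 to 12.7). Of all 31042 probe sets 2841 passed as higher and 1426 as lower. Of the upstream genes 6 of 26 were higher and 1 was lower. *Irf3*, a transcription factor of interferon genes (0.88, SE 0.144), *Tyk2* (0.56, SE 0.129) and *Ifngr1* (0.64, SE 0.151) were higher, and *Mavs*, the mitochondrial adaptor of the RNA sensors, was lower (-1.23, SE 0.232). Of the 35 further induced genes 14 were higher, *Casp1* (0.53), *Ly6e* (0.81), *Nlrc5* (0.83) and *Psme2* (0.46) with the smallest p. The part of batch and cell makeup in these differences was not tested.

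Across rats within groups, some members followed the erythroid markers closely. As deviations from the group means over 42 arrays, *Isg20* had r = 0.90 and rho = 0.84 with the mean of the erythroid list, and r = 0.84 without the 2 arrays farthest from the median. *Cmpk2*, a mitochondrial nucleotide kinase induced by interferon, had r = 0.89 and rho = 0.85, and r = 0.81 without those 2 arrays. *Rsad2*, the radical enzyme viperin, had r = 0.62, rho = 0.56 and r = 0.45 without them (adjusted permutation p of 0.000504 for r and 0.00192 for rho). The permutation p of *Isg20* and *Cmpk2* was 1e-05 for both measures, the smallest that 100000 permutations within groups can give, and 9e-05 after Benjamini-Hochberg adjustment over 36 relations.

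Others ran against the erythroid markers. *Mx1* had r = -0.63 and rho = -0.73 (r = -0.62 without the 2 farthest arrays), and *Stat2* had r = -0.56 and rho = -0.68 (r = -0.60 without them), each with the smallest permutation p for both measures, 9e-05 after adjustment. In all, 13 of 36 members passed adjustment for r, 5 positive and 8 negative. The relation was computed for members only, so this count has no background over all probe sets. *Herc6* was among the positive ones (r = 0.51, rho = 0.38, r = 0.41 without the 2 arrays), with a permutation p of 0.0048 for r and an adjusted p of 0.0157 for r and 0.0529 for rho. With tPA in reperfused-MCAO rats, where *Herc6* was higher, 8 of 10 erythroid markers were positive (median 0.04) and 1 passed as higher, and the mean erythroid level was 12.3 ± 0.0985 in reperfused-MCAO + tPA rats, against 12.2 ± 0.113 in reperfused-MCAO rats. In rats with tPA without MCAO, where the erythroid markers were lower than in anesthesia rats, *Isg20* was lower and *Mx1* higher. The part of the erythroid level in these differences was not tested.

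**Figure D5:**
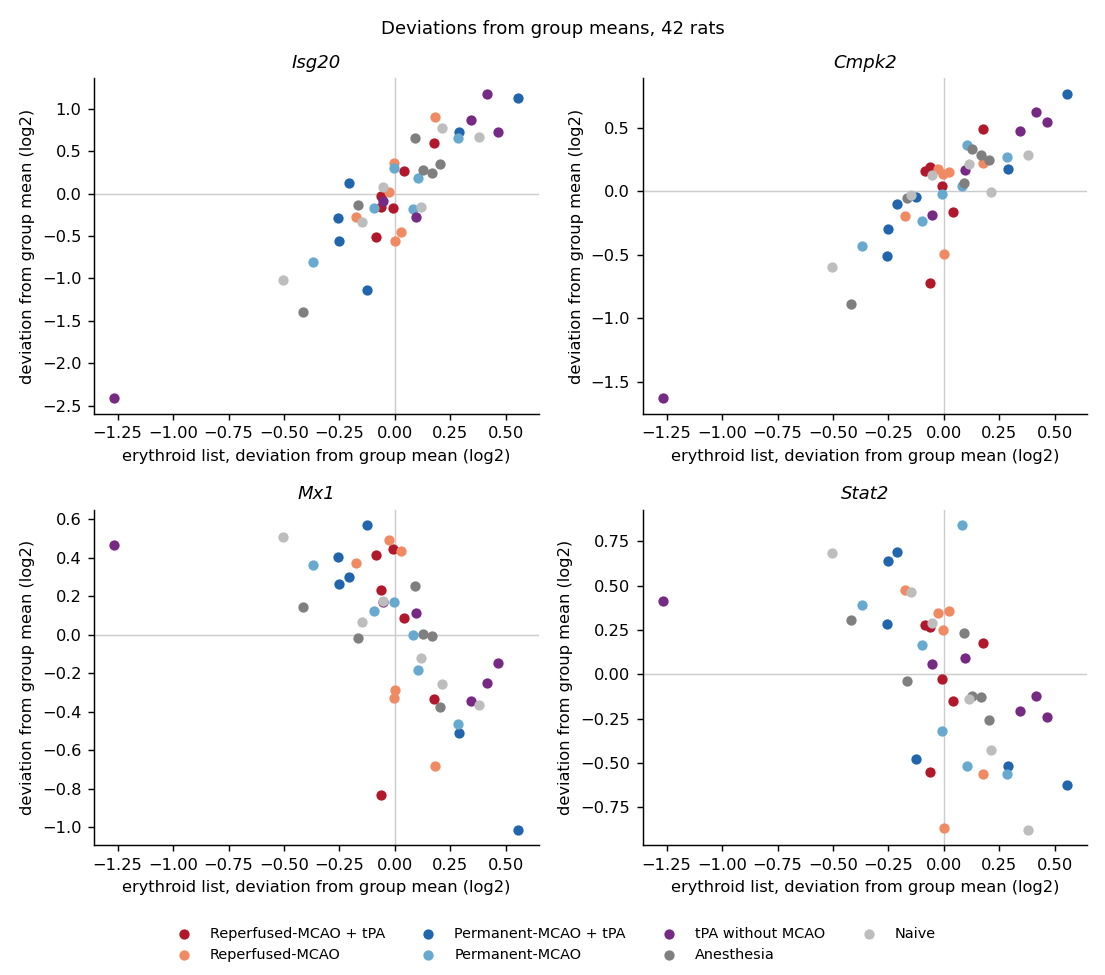
Deviation from the group mean of *Isg20*, *Cmpk2*, *Mx1* and *Stat2* (vertical, log2) against that of the mean of 10 erythroid markers (horizontal, log2), 1 point for each of 42 rats, colored by group. *Isg20* and *Cmpk2* rise with the erythroid level (r = 0.90 and 0.89), *Mx1* and *Stat2* fall (r = -0.63 and -0.56), and 1 rat with tPA without MCAO lies far to the left.

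Stroke without tPA was set against anesthesia. In reperfused-MCAO rats 3 of 36 members (8.33%) passed, against 6.00% of all probe sets. *Oasl* measured 8.003, 9.20 and 9.70 in reperfused-MCAO rats, against 7.30, 7.94 and 8.64 in anesthesia rats (1.14, SE 0.311, limma adjusted p = 0.0966). *Ifit3*, a partner of Ifit2 in binding RNA, measured 9.50, 10.39 and 10.71 in reperfused-MCAO rats, against 8.86, 9.36 and 9.85 in anesthesia rats (0.90, SE 0.237, limma adjusted p = 0.0853). Both were higher with overlap. *Rsad2* measured 13.30, 13.82 and 13.88 in reperfused-MCAO rats, against 13.94, 14.05 and 14.10 in anesthesia rats, without overlap and with a small difference of -0.30 (SE 0.0898, limma adjusted p = 0.127).

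In permanent-MCAO rats *Rsad2* was the member that passed (-0.35, SE 0.0758, limma adjusted p = 0.107), which is 2.78% of the members against 2.78% of all probe sets. Both comparisons share the anesthesia rats, and the untreated MCAO rats also enter the tPA comparisons. Of the upstream genes, *Jak2* (0.93, SE 0.178), *Ifngr1* (1.02, SE 0.209), *Myd88*, an adaptor of Toll-like receptors (0.93, SE 0.198), and *Ifngr2* (0.85, SE 0.215) were higher in reperfused-MCAO rats, and *Ifngr1* (0.61, SE 0.164) and *Jak2* (0.69, SE 0.221) in permanent-MCAO rats, all against anesthesia. Among the further induced genes *Mov10*, an RNA helicase, was higher in both (1.46, SE 0.244, in reperfused-MCAO rats and 0.92, SE 0.166, in permanent-MCAO rats), and in reperfused-MCAO rats *Ifitm1*, which blocks viral entry, was higher (0.72) and *Tnfsf10*, a death ligand, lower (-0.72). Between anesthesia and naive rats 0 of 36 members passed, against 0.821% of all probe sets, none lay under an unadjusted p of 0.05 with limma, and the methods' test gave 0.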

How the data were processed

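Whole blood of 42 rats in 7 groups of 6 was collected by cardiac puncture into PAXgene tubes, and amplified RNA was hybridized to Affymetrix rat expression arrays. The deposited table gives log2 expression values. To obtain them the authors normalized probe-level data by GC-RMA, using Partek. What a comparison can show is limited by the number of rats, 6 per group. The table holds 31099 probe sets, of which 57 array controls were set aside. Gene symbols come from the platform annotation, and the gene table and promoters of GRCr8 served for names and sequences. Probe sets with several symbols (436) or none (9780) name no gene.

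Comparisons were fitted on 12 arrays each in limma 3.58.1 (R 4.3.3, statmod 1.5.0) and the difference of tPA effects on the 24 arrays of the MCAO groups, with Benjamini-Hochberg adjustment over 31042 probe sets. Thresholds were a p of at most 0.01 and a fold of at least 1.2. The methods' test is the same linear model without shared variance. Exact p values come from 924 divisions of 12 rats, and relations to erythroid markers from 100000 permutations within groups (seed 7). The fits were tested on simulated data.

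All members on the array are named, each with the probe set of highest mean, and values per rat are given for those that passed in a tPA comparison. From the pathway lists, up to 4 genes that passed with the smallest p are named, plus the core receptors. Values per rat of *Ifi27*, *Oas1a*, *Oasl*, *Ifit3* and *Rsad2*, and relations of single members to erythroid markers, were added after their values were seen. The members and lists were chosen with earlier results of these data known. Alternatives were other samples in the fit, a replicate block, the hybridization controls as a covariate, median centring, quantile normalization, array weights, removal of dim probe sets, a fold of 1.5, another probe set per gene and omission of each array. Some of these were added after seeing the data for the comparison of the tPA-treated groups. Same-numbered rats did not deviate together in every pair. Permutations, motif searches and plots used Python 3.11.15 with scipy 1.17.1, matplotlib 3.10.9, pandas 2.3.3 and numpy 2.4.6.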

Additional observations from a re-analysis of the deposited data

Results flagged for a closer look

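The effect of tPA differed between reperfused and permanent MCAO for *Herc6* by 1.26 and for *Mx2* by 1.68 on the log2 scale, by a test of the difference itself (limma adjusted p = 0.978 for both).

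In 259 sets of 6 values looked at, those of each member and of the mean over members in each group of rats, 32 held a rat whose gap to the nearest other rat, as a share of the range of the group, was over Dixon's critical value. Chance gives this in about 1 in 20 groups. Of these, replicate 2 of tPA without MCAO, the array lowest in hybridization controls, was lowest in *Cmpk2* (9.39), *Ifi27* (6.22) and *Rsad2* (13.17) and highest in *Irf1* (9.61) and *Irf9* (10.24). In the same group replicate 4 was highest in *Ifih1* (4.32) and replicate 1 in *Oas1a* (10.42).

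Reperfused-MCAO + tPA replicate 5 was lowest in *Ifi27* (8.01), *Ifi44* (6.12) and *Rsad2* (13.19), and replicate 4 was highest in *Parp9* (9.31). Reperfused-MCAO replicate 6 was lowest in *Ifi35* (8.11), *Irf9* (8.72), *Isg15* (8.16) and *Rsad2* (13.30), replicate 3 was lowest in *Ifi44* (6.0398), and replicate 1 was highest in *Irf1* (9.41) and *Oas1b* (3.48). Permanent-MCAO + tPA replicate 5 was highest in *Gbp2* (9.67) and replicate 1 in *Oas1b* (4.16). Permanent-MCAO replicate 6 was highest in *Bst2* (8.83) and lowest in *Trim25* (5.62).

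Anesthesia replicate 1 was lowest in *Bst2* (6.55) and *Cmpk2* (11.25). Naive replicate 3 was lowest in *Dhx58* (6.0396), *Eif2ak2* (5.68) and *Mx2* (3.59), and naive replicate 5 was lowest in *Cmpk2* (11.24). Naive replicate 6 was highest in *Dtx3l* (11.76), *Ifih1* (5.09) and *Parp9* (9.52), and naive replicate 2 was highest in *Ifi44* (7.29).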

How the results depend on the processing

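With 1 fit of all 42 arrays, 2 members passed for tPA in reperfused-MCAO rats (*Herc6* and *Mx2*), 1 in the difference of tPA effects (*Mx2*), 1 in reperfused-MCAO against anesthesia, 1 in anesthesia against naive (*Oas1b*) and 6 between the tPA-treated groups. With the hybridization controls as a covariate, 2 passed for tPA in reperfused-MCAO rats, 3 in the difference, 2 for tPA without MCAO (none of the 4 named, and *Isg20* turned to 0.064), 1 in reperfused-MCAO against anesthesia and 2 in permanent-MCAO against anesthesia. Of all probe sets 221 then passed as higher and 218 as lower for tPA in reperfused-MCAO rats, against 88 and 136 without the covariate. In the difference 137 passed as higher and 113 as lower, against 28 and 64. For tPA without MCAO it was 547 and 256, against 2841 and 1426. With the probe set of largest spread 1 passed in the difference (*Herc6*, since *Mx2* then stands for its other probe set), and without dim probe sets 0 passed in permanent-MCAO against anesthesia. Whether same-numbered rats shared a batch cannot be told from their correlations. In each tPA comparison with MCAO 3 of 6 pairs correlated above 0.1 and the others did not. Not every rat correlated best with its own number. The median of same-numbered pairs was 0.110 in reperfused-MCAO rats, against -0.0096 for other pairs, and 0.023 in permanent-MCAO rats, against -0.0039. With the replicate block 0 passed for tPA in reperfused-MCAO rats, 1 in the difference (*Herc6*) and 4 between the tPA-treated groups (*Isg15*, *Herc6*, *Dtx3l*, *Parp12* and *Oasl* lost). Leaving out each rat in turn gave 1 to 3 for tPA in reperfused-MCAO rats (*Herc6* always), 0 to 1 in permanent-MCAO rats (*Isg15* without permanent-MCAO replicate 3), 2 to 3 in the difference, 3 to 6 for tPA without MCAO and 5 to 12 between the tPA-treated groups (5 without reperfused-MCAO + tPA replicate 4, 12 without permanent-MCAO + tPA replicate 5). In reperfused-MCAO rats 3 passed without reperfused-MCAO replicate 1 (*Eif2ak2* and *Ifit2* added) and 2 without reperfused-MCAO replicate 4 (*Mx2* added). The other counts stayed within 1.5 times those given, and so did those of the comparisons with tPA after median centring, quantile normalization, array weights and a fold of 1.5. The cause was not tested. Quantile normalization turned the split of all probe sets that passed for tPA in reperfused-MCAO rats to 124 higher and 87 lower, against 88 higher and 136 lower as deposited. With 6 rats per group and no depth in array values, small differences of dim genes such as *Oas1b* and *Ifih1* carry little information. *Mx2*, at a mean of 4.62, is above the level of log2 4, but some of its values are close to background.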

Other observations

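*Ddx58*, the founding RNA sensor of its family, had no probe set under that symbol. A probe set annotated *Rig1*, an older name of that gene, was not counted among the members. It differed by 0.16 with tPA in reperfused-MCAO rats (SE 0.458, limma adjusted p = 0.890) and by 0.13 with tPA in permanent-MCAO rats (SE 0.284, limma adjusted p = 1.00).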
